A study of Homo sapiens with 36 samples.

Results

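Depletion of NR4A2 was examined in basal THP-1 monocytes held in buffered hypercapnia (10% CO2). The comparison takes 3 libraries of cells carrying an NR4A2-targeting shRNA (shNR4A2) and 3 libraries of cells carrying a non-target shRNA (shNT), 6 of the 36 libraries of the series, chosen by their labels alone. THP-1 is a human cell line of monocytic leukaemia. Both groups are THP-1 cells transduced with lentiviral particles, both were kept for 4 h at 10% CO2 in pH-buffered medium, and neither received LPS. The remaining libraries are the same lines at 5% CO2, a line carrying an NR4A3-targeting shRNA (shNR4A3), and all 3 lines with LPS (2.5 µg/mL for 2 h); some of them are used below to set the result at 10% CO2 beside other libraries. Each group is 1 transduced line, so that loss of NR4A2 and any other difference between the shNR4A2 and shNT lines cannot be told apart. The labels number the replicates of a group but do not say what separates them. The paper describes its data as representative of 3 individual experiments. The p-values measure the spread between these libraries, part of which may be technical.

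NR4A2 (Nurr1) is an orphan nuclear receptor of the NR4A family, with NR4A1 (Nur77) and NR4A3 (Nor1). The 3 receptors are immediate early genes: they have no known classical ligand and act mainly through how much of them is made. They bind DNA as monomers at the NGFI-B response element (NBRE) and, in monocytes and macrophages, are known for restraining NF-kB dependent transcription. A short hairpin RNA lowers its target by guiding the cell's RNA interference machinery to the mRNA.

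The 6 libraries held 17092108 to 23203740 counts in genes. Levels are given as TPM, for which each count was divided by the deposited length of its gene, and differences as the log2 fold change of shNR4A2 over shNT cells from edgeR's quasi-likelihood test. A gene is called when its adjusted p (Benjamini-Hochberg over 17720 genes) is under 0.05. Fewer genes were detected in shNT replicate 3 (23893 genes with a count) and shNR4A2 replicate 2 (23849) than in the other 4 libraries (25962 to 28920). These libraries also had the lowest shares of mitochondrially encoded counts, 2.01% and 2.09%, against 2.81% to 3.05% in the others, and results that change without them are given beside those results. Markers of monocytes were expressed in every library, with 20 of 24 reaching 1 TPM in at least 1 library of each group. Fibroblast and epithelial markers summed to no more than 1.14 TPM in any library, and the globin genes HBA1, HBA2, HBB and HBG1 were at 0 in all 6. Lymphoid markers summed to 56.6 to 73.9 TPM in shNT and 54.9 to 62.3 TPM in shNR4A2 cells, with MS4A1 at 0. Of the lymphoid, erythroid and megakaryocyte, and fibroblast and epithelial markers, 6, 2 and 4 were tested and 0 were called by edgeR. By DESeq2, or without shNT replicate 1 or shNR4A2 replicate 2, 1 lymphoid marker was called lower.

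The targeted gene was low in both lines and lower in shNR4A2 cells. NR4A2 (ENSG00000153234, chromosome 2 of GRCh38, 156324432 to 156342348, minus strand) stood at 2.38, 1.49 and 3.15 TPM in the shNT libraries and at 1.07, 1.09 and 1.39 TPM in the shNR4A2 libraries. The groups did not overlap, although shNT replicate 2 was close to the highest shNR4A2 library. The log2 fold change was -1.02 (SE 0.29, edgeR adjusted p = 0.0324), a 2.02-fold lower level, which rests on 32 to 75 counts per shNT library and 21 to 37 per shNR4A2 library. The call was not stable: DESeq2 gave -1.01 with an adjusted p of 0.082. The edgeR adjusted p was 0.0699 to 0.162 when any library other than shNT replicate 2 was left out, and 0.261 without shNT replicate 3 and shNR4A2 replicate 2 together, where the log2 fold change was -0.67. At 5% CO2 the same lines gave -0.91 (SE 0.23, edgeR adjusted p = 0.0337), with 2.83 to 4.16 TPM in shNT and 1.63 to 2.41 TPM in shNR4A2 cells. The other receptors of the family were not called at 10% CO2. NR4A1 was at 4.77 to 6.39 TPM in shNT and 4.43 to 6.14 TPM in shNR4A2 cells, with a log2 fold change of -0.11 (edgeR adjusted p = 0.75) whose sign turned without shNT replicate 3 (0.01). NR4A3 was under 1 TPM in every one of the 6 libraries, with overlapping groups and a log2 fold change of 0.67 (edgeR adjusted p = 0.457).

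**Figure D1:**
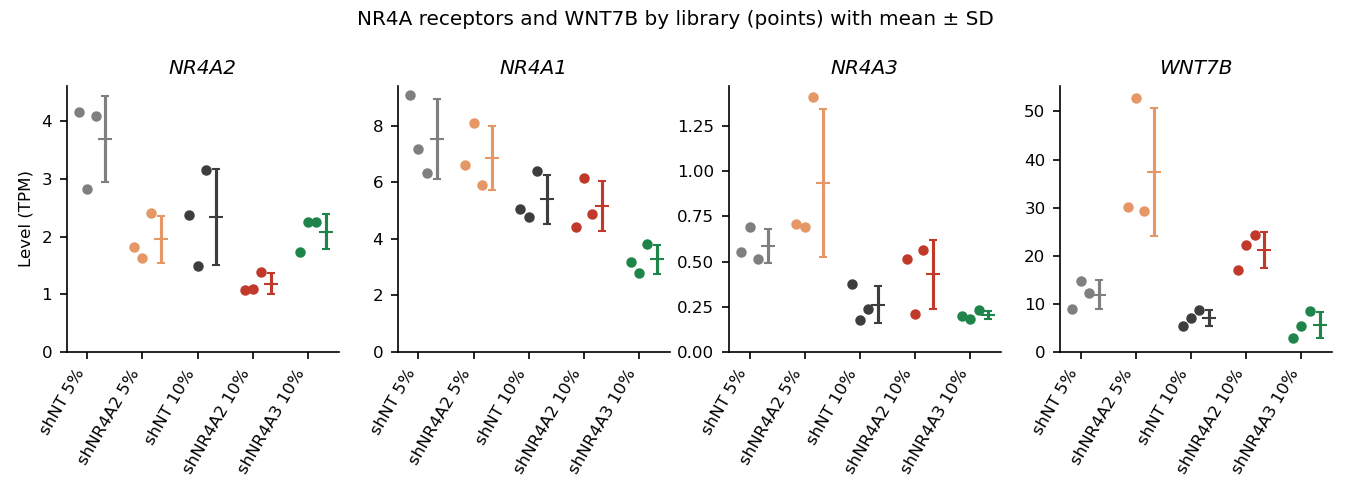
Level in TPM of NR4A2, NR4A1, NR4A3 and WNT7B (vertical axes from 0, different ranges) in each library (points) of shNT and shNR4A2 cells at 5% and 10% CO2 and of shNR4A3 cells at 10% CO2, with the mean and SD of 3 libraries beside them. At 10% CO2 the shNR4A2 libraries of NR4A2 sit between 1.07 and 1.39 TPM below the shNT libraries at 1.49 to 3.15 TPM, while those of WNT7B sit between 17.1 and 24.4 TPM above the shNT libraries at 5.35 to 8.7 TPM.

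Depletion of NR4A2 went with widespread differences in the transcriptome. Of the 17720 genes tested, 1409 (7.95%) were called, 807 (4.55%) higher and 602 (3.4%) lower in shNR4A2 than in shNT cells. Among them 1307 were protein coding and 68 were lncRNA genes. The higher genes had the larger differences: 302 of the 807 differed by 2-fold or more and 86 by 4-fold or more, against 106 and 14 of the 602 lower genes. The median level of the higher genes was 6.61 TPM in shNT and 12 TPM in shNR4A2 cells, and that of the lower genes 19.4 and 12.9 TPM. The 3 libraries of each group did not overlap for 1383 of the called genes and for 25.6% of all genes tested. The median log2 fold change over all genes was -0.01, and the coefficient of biological variation was 12.2%. DESeq2 called 1403 genes, 9.27% of those it gave an adjusted p. Without shNT replicate 2 the number called was 750, and without shNR4A2 replicate 3 it was 836. Without shNT replicate 3 and shNR4A2 replicate 2 together it was 1763.

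**Figure D2:**
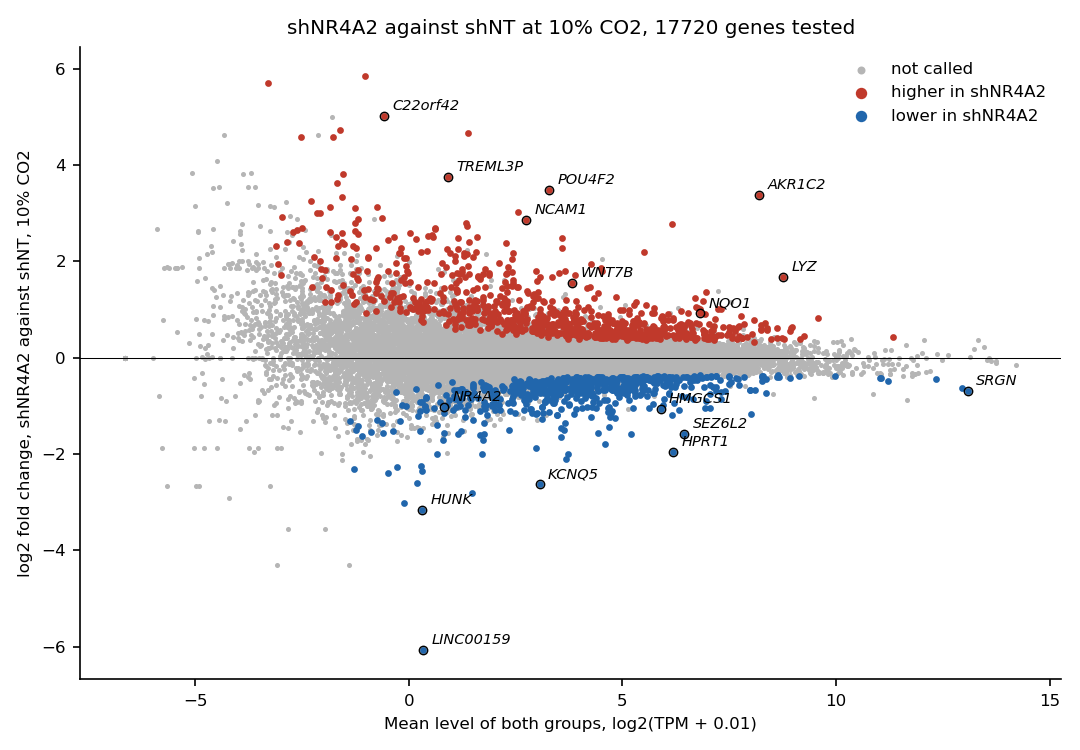
Log2 fold change of shNR4A2 over shNT cells at 10% CO2 (vertical axis) against the mean level of both groups on a log2 axis (TPM plus 0.01), 1 point per gene tested, with 807 genes called higher in red, 602 called lower in blue and the rest in grey. AKR1C2 and LYZ combine a high level with a large difference (3.38 and 1.67 on the log2 scale), and SRGN, among the most abundant transcripts, is lower by 0.70.

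The 14 largest increases and 14 largest decreases were taken from called genes whose groups did not overlap. Of the 14 genes with the largest increases, AKR1C2 had the smallest adjusted p. It encodes a cytosolic aldo-keto reductase that reduces steroids and reactive carbonyls. AKR1C2 (ENSG00000151632, chromosome 10, 4987400 to 5018031, minus strand) was at 54.1, 47.4 and 49.3 TPM in shNT cells and at 551, 527 and 532 TPM in shNR4A2 cells. All shNR4A2 libraries were far above all shNT libraries, and the log2 fold change of 3.38 (SE 0.12, edgeR adjusted p = 2.95e-14) was a 10.4-fold difference. AKR1C2 shares most of its sequence with its neighbours AKR1C1 and AKR1C3, and how the authors' counting split reads between them is not given in the sources used here. POU4F2, a POU-domain transcription factor of retinal ganglion cells, went from 0.537, 2.59 and 1.59 TPM to 11.5, 23.1 and 19.3 TPM (log2 fold change 3.48, SE 0.42, edgeR adjusted p = 0.0015). BHLHE22, a neuronal basic helix-loop-helix repressor, went from 16.2 to 20 TPM to 105 to 148 TPM (2.77, SE 0.14, edgeR adjusted p = 1.77e-11). In NCAM1, which encodes the adhesion molecule CD56, the shNT libraries were at 1.45 to 1.64 TPM and the shNR4A2 libraries at 9.38 to 13.9 TPM (2.86, SE 0.15, edgeR adjusted p = 7.13e-11). In shNR4A2 cells these 4 genes were at 9.38 TPM or more in every library, and they differed from shNT cells by 6.83-fold or more.

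Other increases of this size began from 2.01 TPM or less in every shNT library. HTRA3, a secreted serine protease, was at 0.711 to 2.01 TPM in shNT and 5.48 to 14.8 TPM in shNR4A2 cells, a log2 fold change of 3.02. GABBR2, a subunit of the GABA-B receptor, had a log2 fold change of 2.70, with 0.349 to 0.442 TPM in shNT and 2.3 to 3.06 TPM in shNR4A2 cells. HOXB13, a homeobox factor, had one of 2.53 and never passed 2.39 TPM. CYP26B1, which degrades retinoic acid, had one of 3.14 and the calpain-like CAPN6 one of 2.91, and neither passed 1.59 TPM in any library. The non-coding LINC00942 (2.55) and the pseudogene TREML3P (3.76) were likewise under 1 TPM in every shNT library. C22orf42 was nearly silent in shNT cells, with 1 count in the 3 libraries together against 45 in shNR4A2 cells, a ratio of 45.6 (95% exact interval 7.78 to 1842, counting error only). DESeq2 gave no adjusted p for C22orf42 or TREML3P. C1QC, a chain of the complement protein C1q, had a log2 fold change of 2.73 with a wide spread, since shNR4A2 replicate 2 (1.13 TPM) lay just above the highest shNT library (0.971 TPM) while the other shNR4A2 libraries reached 6.96 and 5.35 TPM. C1QA, named after its values were seen because its product joins C1QC in C1q, gave 2.49 (SE 0.49, edgeR adjusted p = 0.00234). The call of C1QC was lost without shNT replicate 1 (edgeR adjusted p = 0.0503) or replicate 3 (0.0819). That of POU4F2 was lost without shNT replicate 3 (edgeR adjusted p = 0.0531), and without this library and shNR4A2 replicate 2 together (0.167), though its log2 fold change was still 3.31.

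Among the 14 largest decreases, the most abundant gene was HPRT1, the purine salvage enzyme that returns hypoxanthine and guanine to nucleotides. HPRT1 (ENSG00000165704, chromosome X, 134460153 to 134520513, plus strand) was at 110, 128 and 109 TPM in shNT cells and at 35.1, 27.8 and 28.6 TPM in shNR4A2 cells. The groups were far apart (log2 fold change -1.96, SE 0.14, edgeR adjusted p = 1.41e-08), a 3.89-fold difference. KCNQ5, a voltage-gated potassium channel subunit, went from 15.2, 15 and 12.8 TPM to 1.71, 2.64 and 2.75 TPM (-2.63, SE 0.16, edgeR adjusted p = 9.55e-10). FAM163A went from 17.7 to 23.2 TPM to 3.47 to 7.12 TPM (-2.11), and the non-coding LINC01088 from 19.1 to 22.4 TPM to 4.86 to 6.3 TPM (-2.01). NOG, which encodes the BMP antagonist noggin, fell from 3.66 to 7.13 TPM to 1.28 to 1.42 TPM (-1.99). Each of these 5 genes was lower in all 3 shNR4A2 libraries than in any shNT library, which was a condition of being named here.

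The remaining 9 genes of the same rank were at 3.2 TPM or less in every library. On chromosome 21, the kinase gene HUNK was at 1.93 to 2.71 TPM in shNT and 0.122 to 0.359 TPM in shNR4A2 cells (log2 fold change -3.16, SE 0.3, edgeR adjusted p = 5.3e-07). LINC00159, whose annotated span lies downstream of HUNK on the same chromosome, had 25 counts in the shNT libraries and 0 in the shNR4A2 libraries. Against a floor of 3 counts over the group it was at least 8.22-fold lower, and DESeq2 gave it no adjusted p. KDR, the receptor for vascular endothelial growth factor, had a log2 fold change of -2.60. The others were EXOC3L2 (-3.02), the zinc finger gene ZNF662 (-2.40), the immunoglobulin superfamily gene IGSF10 (-2.36), CA8, a carbonic anhydrase-related protein without enzyme activity (-2.27), the adhesion G protein-coupled receptor gene ADGRG3 (-2.25) and the kinase gene BRSK2 (-2.01). All these values are log2 fold changes, and in all 9 the groups did not overlap, as the rule for naming them required.

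Genes of the monocyte and macrophage lineage were higher in shNR4A2 cells. Of 24 markers, 22 were tested and 19 had a positive sign. Of the 22, 12 were called higher and 0 lower, beside 4.55% and 3.4% of all genes. Their median log2 fold change was 0.72, beside -0.01 for all genes tested. LYZ, which encodes lysozyme, was at 223, 203 and 184 TPM in shNT cells and 706, 566 and 714 TPM in shNR4A2 cells (log2 fold change 1.67, SE 0.13, edgeR adjusted p = 2.47e-08). The inhibitory receptor gene LILRB1 went from 0.962 to 1.8 TPM to 5.23 to 5.53 TPM (1.84), LILRB4 from 53.2 to 57.2 TPM to 99.8 to 125 TPM (0.97) and CD36, the scavenger receptor, from 2.12 to 2.9 TPM to 5.64 to 6.79 TPM (1.29). The groups were apart for all 4. CD14, the LPS co-receptor, and CSF1R, the receptor for macrophage colony stimulating factor, were named after their values were seen. CD14 was at 10.7 to 19.4 TPM in shNT and 30.4 to 50.1 TPM in shNR4A2 cells (1.27, SE 0.23, edgeR adjusted p = 0.00402), and CSF1R at 54.2 to 68.5 and 112 to 138 TPM (0.94, SE 0.13, edgeR adjusted p = 3.98e-05). Not every marker followed: CD68 (-0.09), S100A8 (-0.09), LGALS3 (-0.18) and CD33 (0.10) were not called. The summed level of the 24 markers was 734 to 886 TPM in the shNT and 1361 to 1626 TPM in the shNR4A2 libraries. In bulk RNA, a larger share of cells with such transcripts and more of the transcripts per cell cannot be told apart.

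Genes of the primary granules, which THP-1 cells express at very high levels, were not higher. Of 11 tested, only SRGN was called, beside 7.95% of all genes. This granule proteoglycan was at 11485, 10913 and 9471 TPM in shNT cells and 6829, 6541 and 6855 TPM in shNR4A2 cells (log2 fold change -0.70, SE 0.11, edgeR adjusted p = 0.000393). The median log2 fold change of the 11 genes was -0.32. The protease genes ELANE (-0.38), PRTN3 (-0.76) and CTSG (-0.87) had negative values that were not called (edgeR adjusted p = 0.0696, 0.154 and 0.2). Calls in the list numbered 5 without shNT replicate 1 and 2 without shNR4A2 replicate 2. Of 11 MHC class II genes tested, 3 were called higher and 0 lower, beside 4.55% and 3.4% of all genes, with a median of 0.61. HLA-DRB1 rose from 160 to 187 TPM to 273 to 307 TPM (log2 fold change 0.71, edgeR adjusted p = 0.000447). HLA-DPA1 (1.05, edgeR adjusted p = 0.0323) and HLA-DRA (0.78, edgeR adjusted p = 0.0383) were called too, and both calls were lost without shNT replicate 1 or 2 or shNR4A2 replicate 1, among others (edgeR adjusted p = 0.0509 to 0.261), which left 1 call in the list. Reads of HLA genes can be split among their near-identical relatives, and the values are uncertain to that extent.

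Of 37 haematopoietic transcription factors tested, 5 were called higher and 4 lower, beside 4.55% and 3.4% of all genes. MAF, a bZIP factor of macrophages, rose from 1.33, 0.558 and 0.597 TPM to 5.79, 3.27 and 4.44 TPM (log2 fold change 2.40, SE 0.31, edgeR adjusted p = 0.000118). KLF4, known for driving monocyte differentiation, rose from 13.7 to 19.6 TPM to 30.5 to 38.4 TPM (0.91), and the repressor gene BCL6 from 3.46 to 4.09 TPM to 5.9 to 8.68 TPM (0.88). MYC, which promotes growth and proliferation, fell from 364, 411 and 444 TPM to 251, 267 and 237 TPM (-0.73, SE 0.11, edgeR adjusted p = 0.000139). The myeloid factors SPI1 (0.33), CEBPA (-0.02), RUNX1 (-0.08) and IRF8 (0.09) were not called. The number called in the list was 4 without shNT replicate 2 or shNR4A2 replicate 1 and 5 without shNR4A2 replicate 3 or in 1 fit to all 36 libraries. Of 21 other nuclear receptors tested, only RARA, a retinoic acid receptor (0.64, edgeR adjusted p = 0.00285), and its partner RXRA (0.42, edgeR adjusted p = 0.0226) were called, both higher. The RXRA call was lost without shNT replicate 1 or 2 or shNR4A2 replicate 3 (edgeR adjusted p = 0.0617, 0.191 and 0.0663), and that of RARA in 1 fit to all 36 libraries (0.0542).

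Of 39 genes of the cell cycle and replication tested, 3 were called, beside 7.95% of all genes. CCND1, which encodes cyclin D1, rose from 12.4, 11.7 and 10.7 TPM to 28.4, 25.9 and 30.8 TPM (log2 fold change 1.25, SE 0.13, edgeR adjusted p = 2.3e-06). RB1, the retinoblastoma tumour suppressor, fell from 43.7 to 53.6 TPM to 31.1 to 37 TPM (-0.51, edgeR adjusted p = 0.0117). CDKN1A, which encodes the inhibitor p21, was called higher (0.48, edgeR adjusted p = 0.046), but was lost without shNT replicate 1 or 2 or shNR4A2 replicate 2 or 3 (edgeR adjusted p = 0.0734 to 0.26). The replication genes MCM2, PCNA and RRM2 and the proliferation marker MKI67 lay between -0.18 and -0.03 on the log2 scale and were not called. The median over the list was -0.06.

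Of 35 cytokine and chemokine genes tested, 3 were called, beside 7.95% of all genes, and all 3 were higher: IL1RN, the interleukin-1 receptor antagonist, from 19.5 to 26.4 TPM to 35.9 to 41.9 TPM (log2 fold change 0.71, SE 0.14, edgeR adjusted p = 0.0017), TNFSF10, which encodes TRAIL (0.86, edgeR adjusted p = 0.00599), and IL16 (0.63, edgeR adjusted p = 0.0176). TNF (-0.05), CXCL8 (-0.33), CCL2 (-0.62) and IL1B (0.56) were not called. There were 5 calls without shNT replicate 1 or shNR4A2 replicate 2 (also together with shNT replicate 3), and the IL16 call was lost without shNT replicate 2 or shNR4A2 replicate 3 (edgeR adjusted p = 0.0977 and 0.08). Of 31 genes of LPS receptors and the NF-kB pathway tested, 3 were called higher and 1 lower, beside 4.55% and 3.4% of all genes. The Toll-like receptor genes TLR8 (1.68) and TLR6 (0.75) and the atypical IkB gene BCL3 (0.85) rose, while IRAK3, an inhibitor of Toll-like receptor signalling, was called lower (-0.38, edgeR adjusted p = 0.0455). The IRAK3 call was lost in 4 of 6 fits without a library and with RLE or library-size scaling (edgeR adjusted p = 0.0513 to 0.169). NFKB1, RELA, NFKBIA, TNFAIP3 and TLR4 were not called, with log2 fold changes from -0.12 to 0.24. Of 34 interferon-stimulated genes tested, only IFI35 was called (0.56, edgeR adjusted p = 0.00391), with a list median of 0.17. The number was 5 without shNR4A2 replicate 1, 3 without shNR4A2 replicate 3 and 2 without shNR4A2 replicate 2, alone or together with shNT replicate 3.

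Of 32 cytokine and chemokine receptor genes tested, 8 were called higher and 1 lower, beside 4.55% and 3.4% of all genes, with a median log2 fold change of 0.34. CXCR4, the receptor for CXCL12, rose from 26.4 to 29.9 TPM to 38.9 to 56.2 TPM (0.77, edgeR adjusted p = 0.00164), IL17RA from 113 to 146 TPM to 188 to 223 TPM (0.63, edgeR adjusted p = 0.00178) and IL4R from 23.2 to 31.4 TPM to 41 to 44.2 TPM (0.57, edgeR adjusted p = 0.00444). KIT, the stem cell factor receptor of progenitors, fell from 13.1, 8.16 and 8.65 TPM to 5.09, 4.5 and 4.36 TPM (-1.14, SE 0.18, edgeR adjusted p = 0.000341). The number called was 3 without shNT replicate 2, where IL4R was lost (edgeR adjusted p = 0.0656), and 5 without shNR4A2 replicate 1. Of 26 adhesion and matrix genes tested, 8 were called higher and 1 lower. Besides NCAM1 these were led by ITGAL, the alpha chain of LFA-1, from 28.6 to 30.4 TPM to 53 to 72.3 TPM (1.09, SE 0.12, edgeR adjusted p = 3.25e-06), and SDC4, which encodes syndecan-4, from 8.29 to 11.4 TPM to 24 to 29.6 TPM (1.45). ITGB2, the beta chain that pairs with ITGAL and named after its values were seen, was at 375 to 405 and 566 to 641 TPM (0.61, edgeR adjusted p = 0.000872). ITGA4, the alpha chain of VLA-4, fell from 43.5, 41.9 and 35 TPM to 20.9, 29.2 and 24.8 TPM (-0.73, SE 0.13, edgeR adjusted p = 0.000655). Of 34 proteases and inhibitors tested, 6 were called higher and 2 lower. The metalloprotease gene ADAM19 rose from at most 0.648 TPM to 1.44 to 2.81 TPM (2.22). MMP17 (0.68) and CST3 (0.58), which encodes cystatin C, rose. In 1 fit to all 36 libraries the number called was 5.

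In the Wnt pathway, 33 genes were tested, 4 were called higher and 2 lower, beside 4.55% and 3.4% of all genes. WNT7B, a secreted Wnt ligand (chromosome 22, 45920362 to 45977129, minus strand), was at 5.35, 7.08 and 8.7 TPM in shNT cells and 17.1, 22.3 and 24.4 TPM in shNR4A2 cells. Every shNR4A2 library was above every shNT library (log2 fold change 1.55, SE 0.16, edgeR adjusted p = 3.18e-06). WNT3 went the other way, from 5.26 to 7.53 TPM to 2.84 to 4.65 TPM (-0.95, edgeR adjusted p = 0.00479). The Wnt effector TCF7L2 rose from 2.17 to 2.66 TPM to 4.2 to 4.45 TPM (0.78, edgeR adjusted p = 0.00631), and the Wnt antagonist SFRP1 was lower (-0.47, edgeR adjusted p = 0.0207). CTNNB1, which encodes beta-catenin, was not called (-0.14), nor were the co-receptors LRP5 (-0.07) and LRP6, and the list median was 0.05. The WNT3 call was lost without shNR4A2 replicate 3 (edgeR adjusted p = 0.0519) and that of SFRP1 without shNT replicate 2 (0.14) or shNR4A2 replicate 1 (0.119). Either without shNT replicate 2 or without shNR4A2 replicate 3, 3 genes were called.

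Of 28 genes of cholesterol synthesis, uptake and efflux tested, 3 were called lower and 1 higher, beside 3.4% and 4.55% of all genes. HMGCS1, the synthase that makes HMG-CoA for the mevalonate pathway, fell from 84.2, 70.8 and 84.5 TPM to 37.5, 37.7 and 42.4 TPM (log2 fold change -1.06, SE 0.12, edgeR adjusted p = 4.17e-06). SC5D, a late enzyme of the pathway, fell from 32.9, 25.9 and 25 TPM to 15.9, 12.9 and 12.9 TPM (-1.04, SE 0.14, edgeR adjusted p = 6.68e-05). The isomerase gene IDI1 (-0.45, edgeR adjusted p = 0.0218) was lower and INSIG1, which retains the SREBP complex in the endoplasmic reticulum, higher (0.51, edgeR adjusted p = 0.0124). Other genes of the pathway, SQLE (0.01) and SREBF2 (0.02), were not called and the median was 0.11. The IDI1 call was lost without shNT replicate 2 or any shNR4A2 replicate (edgeR adjusted p = 0.0509 to 0.1) and that of INSIG1 without shNT replicate 2 (0.114) or shNR4A2 replicate 3 (0.107). The number called was 2 in either of those fits, and 7 without shNT replicate 3 and shNR4A2 replicate 2 together.

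Of 32 carbonic anhydrases and acid-base transporters tested, 1 was called higher and 3 lower, beside 4.55% and 3.4% of all genes. Besides CA8, the abundant carbonic anhydrase gene CA2 was lower, at 5673 to 6046 TPM in shNT and 4096 to 4620 TPM in shNR4A2 cells (-0.45, SE 0.11, edgeR adjusted p = 0.0121), and so was SLC16A7, a monocarboxylate transporter (-0.56, edgeR adjusted p = 0.0243). The proton-sensing receptor gene GPR65 was higher (1.04, SE 0.25, edgeR adjusted p = 0.00931). Calls were lost for CA2 without shNT replicate 2 or shNR4A2 replicate 3 (edgeR adjusted p = 0.097 and 0.0854), for GPR65 without shNT replicate 2 or shNR4A2 replicate 1 (0.0608 and 0.0637) and for SLC16A7 in 4 fits without a library (0.0721 to 0.13). The number called was 1 without shNT replicate 2, 2 without shNR4A2 replicate 1 or 3, and 7 without shNR4A2 replicate 2, alone or together with shNT replicate 3. None of the 13 mitochondrially encoded genes was called, with log2 fold changes from -0.15 to 0.05. The paper lists 9 genes as CO2-responsive in all 3 lines, with and without LPS. None of these was called either, with log2 fold changes from -0.35 to 0.39. By edgeR, 1 of these 9 was called without shNT replicate 1, without shNR4A2 replicate 2, or without shNT replicate 3 and shNR4A2 replicate 2 together.

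Of 30 glycolytic and hypoxia-inducible genes tested, 3 were called higher, beside 4.55% of all genes. EGLN3, a prolyl hydroxylase that marks HIF for degradation, was at most 0.101 TPM in the shNT libraries and at 0.302 to 0.506 TPM in the shNR4A2 libraries (log2 fold change 3.00, SE 0.62, edgeR adjusted p = 0.0031). DESeq2 gave no adjusted p for EGLN3. The hexokinase gene HK1 (0.53) and the glucose transporter gene SLC2A1 (0.33) were called, each lost in 4 or more of the 6 fits without a library (edgeR adjusted p = 0.0532 to 0.238), and the number called was 1 without shNT replicate 2 or shNR4A2 replicate 3. It was 8 without shNT replicate 3 and shNR4A2 replicate 2 together. GAPDH (-0.05), PGK1 (-0.15) and LDHA (-0.18) were not called. Of 20 heat shock proteins and co-chaperones tested, 2 were called higher, beside 4.55% of all genes. They were HSPA6 (1.16, edgeR adjusted p = 0.00281) and BAG3 (0.51, edgeR adjusted p = 0.0104). BAG3 was lost without shNT replicate 2 (edgeR adjusted p = 0.0616), which left 1 call, and HSPA6 in 1 fit to all 36 libraries (0.097). Of 24 ATF4, proline and one-carbon genes tested, 1 was called higher and 1 lower, beside 4.55% and 3.4% of all genes. The cystine transporter gene SLC7A11 was higher (0.70, edgeR adjusted p = 0.00232) and ALDH18A1, the first enzyme of proline synthesis, lower (-0.39, edgeR adjusted p = 0.039). The ALDH18A1 call was lost in 4 fits without a library (edgeR adjusted p = 0.0637 to 0.203). The number called was then 1.

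The increase of AKR1C2 and SLC7A11 led to a list of 32 genes of the NRF2 pathway, drawn up after these values were seen. NRF2, encoded by NFE2L2, is the transcription factor that raises antioxidant and detoxifying enzymes when its inhibitor KEAP1 is modified by electrophiles. Of the 30 genes tested, 15 were called higher and 0 lower, beside 4.55% and 3.4% of all genes. A positive sign was seen in 26, and the median log2 fold change was 0.48. The choice of the list is not independent of these counts. ABCC2, which encodes an efflux transporter, had the lowest value (-1, SE 0.41, edgeR adjusted p = 0.149). It was called lower in 1 fit to all 36 libraries (-0.99, edgeR adjusted p = 0.0479) and without shNT replicate 3 and shNR4A2 replicate 2 together (-1.51, edgeR adjusted p = 0.0254), beside 16 and 18 members called higher. NQO1, a quinone reductase, rose from 77, 69.6 and 84.4 TPM to 116, 169 and 165 TPM (0.92, SE 0.13, edgeR adjusted p = 6.05e-05). OSGIN1 rose from 5.95, 6 and 11.4 TPM to 23.8, 29.2 and 39.8 TPM (1.95, SE 0.25, edgeR adjusted p = 0.000569). Among enzymes that supply NADPH, PGD rose from 221 to 255 TPM to 315 to 412 TPM (0.59) and ME1 from 24.9 to 30.2 TPM to 41.9 to 58.7 TPM (0.77). In glutathione and thioredoxin metabolism, GCLM (0.73), TXNRD1 (0.56), SRXN1 (0.96) and GSR (0.43) rose. Beside AKR1C2, its neighbours AKR1C1 (1.06) and AKR1C3 (0.79) were called.

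Among the regulators of that pathway, NFE2L2 itself was at 62.2 to 76.8 TPM in shNT and 66 to 75.6 TPM in shNR4A2 cells, with a difference near 0 whose sign depended on the scaling, and KEAP1 was not called (0.28, edgeR adjusted p = 0.13). MAFG, a small MAF partner of NRF2, was higher (0.53, edgeR adjusted p = 0.00898). HMOX1, haem oxygenase 1, spread widely, with 91.6, 37.4 and 117 TPM in shNT and 191, 150 and 312 TPM in shNR4A2 cells (1.38, SE 0.55, edgeR adjusted p = 0.265). FTL (0.36) and GCLC (0.24) were not called. Within the list, the calls of GSR, TKT, MAFG and SRXN1 were lost in 1 to 4 fits without a library (edgeR adjusted p = 0.0567 to 0.154), and that of GCLM in 1 fit to all 36 libraries (0.0522).

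**Figure D3:**
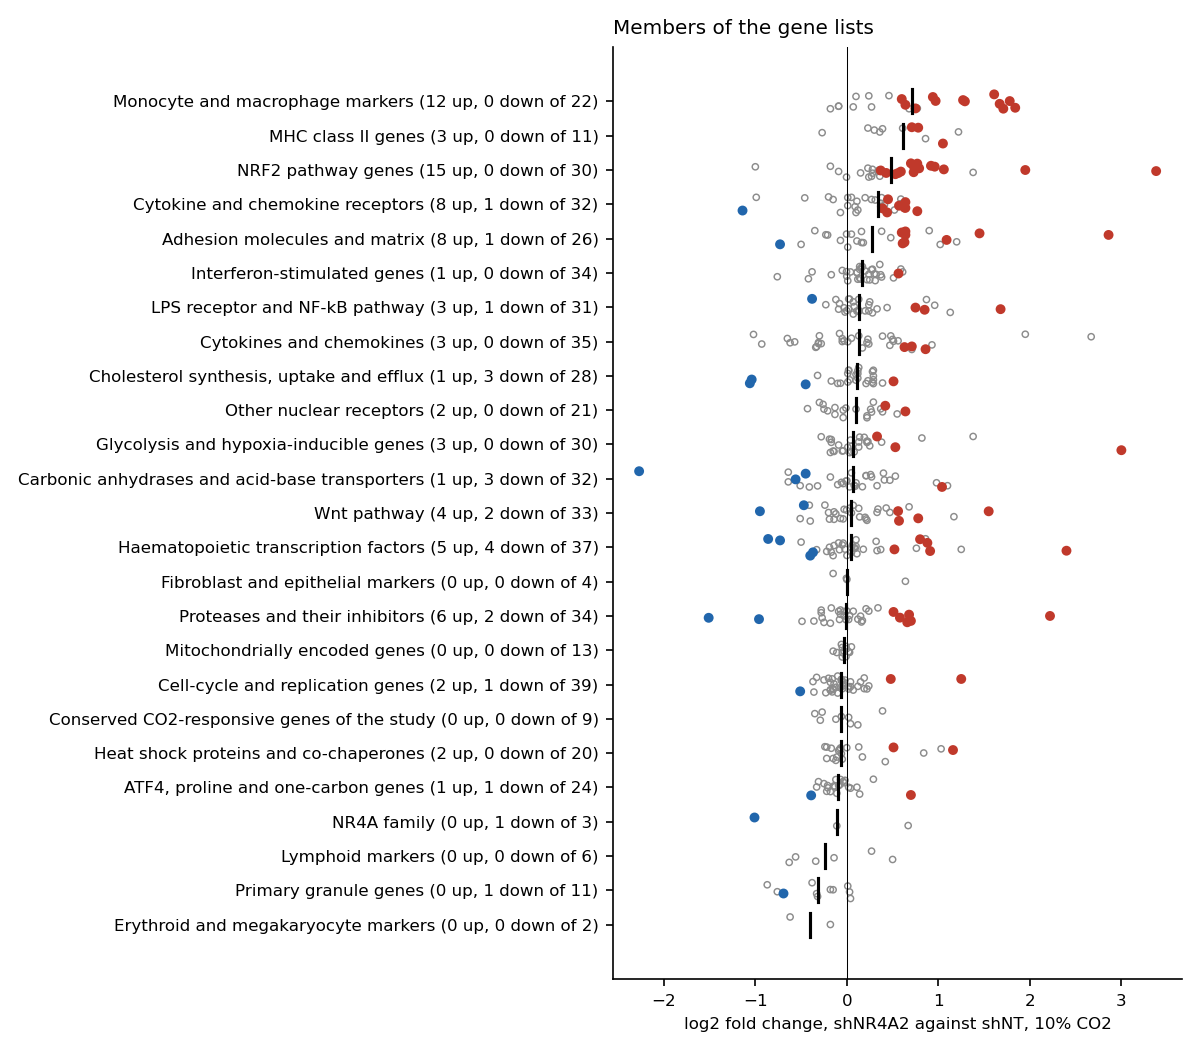
Log2 fold change of shNR4A2 over shNT cells at 10% CO2 (horizontal axis) of the tested members of each gene list, ordered by median (black bar), with members called higher in red, called lower in blue and not called as open circles. Monocyte and macrophage markers have the highest median (0.72, 12 of 22 called higher), MHC class II genes follow (0.61) and the NRF2 list, chosen after its values were seen, comes next (0.48).

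The promoter windows of the called genes were searched for the NBRE, AAAGGTCA on either strand, because it is the monomer site of NR4A2. The windows reach from 250 bases before to 50 bases after each RefSeq start on GRCh38.p14, and a gene counts when any of its windows holds the letters. Among the genes with a window, 6 of 577 called higher (1.04%) and 5 of 455 called lower (1.1%) held it, beside 1.18% of the 12094 tested genes and 1.49% of all 27305 genes in the table. The share in called genes was thus close to that of tested genes. The 11 genes are shown because they are the called genes with the receptor's site next to a start. Each stretch runs 5′ to 3′ along the strand of its gene with the motif in capitals, which reads TGACCTTT where the site lies on the other strand.
AGMAT, chr1:15585058-15585117, minus strand: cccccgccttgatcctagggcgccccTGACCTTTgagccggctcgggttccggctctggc
CD1C, chr1:158289724-158289783, plus strand: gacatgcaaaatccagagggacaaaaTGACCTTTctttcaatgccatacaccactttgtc
GAS5, chr1:173869091-173869150, minus strand: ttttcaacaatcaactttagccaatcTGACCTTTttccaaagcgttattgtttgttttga
TMCC2, chr1:205228849-205228908, plus strand: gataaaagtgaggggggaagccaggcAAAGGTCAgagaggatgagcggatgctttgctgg
DNAH14, chr1:224929404-224929446, plus strand: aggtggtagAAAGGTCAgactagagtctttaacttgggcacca
RPS3A, chr4:151099537-151099596, plus strand: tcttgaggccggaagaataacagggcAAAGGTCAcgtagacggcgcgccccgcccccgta
TCF7, chr5:134115550-134115609, plus strand: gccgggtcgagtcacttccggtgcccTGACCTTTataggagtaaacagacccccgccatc
SYNE1, chr6:152637374-152637433, minus strand: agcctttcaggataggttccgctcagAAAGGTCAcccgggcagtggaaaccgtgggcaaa
DMRT2, chr9:1051303-1051362, plus strand: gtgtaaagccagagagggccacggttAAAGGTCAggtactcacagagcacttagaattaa
STAT5A, chr17:42288430-42288489, plus strand: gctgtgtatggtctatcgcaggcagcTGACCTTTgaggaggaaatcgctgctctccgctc
IQCN, chr19:18274546-18274605, minus strand: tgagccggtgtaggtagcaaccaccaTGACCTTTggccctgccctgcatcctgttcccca
Of these genes, CD1C, a lipid-presenting relative of the MHC, had the largest difference (log2 fold change 2.12, edgeR adjusted p = 0.00367), followed by TMCC2 (1.80), IQCN (1.22) and the nuclear envelope gene SYNE1 (1.15). TCF7, a Wnt effector, was at 0.57 and the signal transducer gene STAT5A at 0.47. The 5 lower genes were DMRT2 (-0.67), DNAH14 (-0.57), AGMAT (-0.54), the non-coding GAS5 (-0.51) and the ribosomal protein gene RPS3A (-0.42). Their motifs began between 241 and 37 bases before a start. The calls of AGMAT, DMRT2, DNAH14, RPS3A, STAT5A and TCF7 were each lost in 3 or more of the 6 fits without a library (edgeR adjusted p = 0.0544 to 0.199).

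The core of the antioxidant response element, TGACNNNGC on either strand, was searched after the values of the NRF2 list were seen. It was held by 7 of the 22 NRF2 pathway genes with a window (31.8%), by 23.2% of genes called higher, 15.8% of genes called lower, 19.3% of tested genes and 16.1% of all genes in the table. The stretches around the core are shown for the called members of the list whose core lies before the start.
PGD, chr1:10398837-10398897, plus strand: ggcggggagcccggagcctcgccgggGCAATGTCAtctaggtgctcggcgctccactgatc
GCLM, chr1:93909431-93909490, minus strand: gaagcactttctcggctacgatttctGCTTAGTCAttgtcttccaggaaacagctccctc
ME1, chr6:83431154-83431214, minus strand: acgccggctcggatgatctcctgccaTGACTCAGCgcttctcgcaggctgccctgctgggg
TXNRD1, chr12:104215654-104215714, plus strand: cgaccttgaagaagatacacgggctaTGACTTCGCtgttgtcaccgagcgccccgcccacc
TXNRD1, chr12:104286904-104286964, plus strand: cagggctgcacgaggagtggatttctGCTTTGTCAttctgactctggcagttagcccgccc
PGD, GCLM, ME1 and TXNRD1 had log2 fold changes of 0.59, 0.73, 0.77 and 0.56. The windows of AKR1C2, NQO1 and OSGIN1 did not hold the core, which says only that these letters are not within the window. A match of letters is a description of the sequence and not a measured binding site.

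The same lines at 5% CO2 gave another 6 libraries. At 5% CO2, 1008 genes (5.69%) were called, 570 higher (3.22%) and 438 lower (2.47%), and 781 genes were called at both CO2 levels. These 781 are 55.4% of the genes called at 10% and 77.5% of those called at 5%, and all had the same direction. Of the 1409 genes called at 10% CO2, 1406 (99.8%) had the same sign at 5%, against 77.4% of all genes tested. Their median absolute log2 fold change was 0.71 at 10% CO2 and, taken in the direction seen at 10%, 0.65 at 5%. The exceptions were 2 unnamed genes and GRIN2D, whose value at 5% was -0.01. AKR1C2 was at 45.1 to 53.4 TPM in shNT and 510 to 580 TPM in shNR4A2 cells at 5% CO2 (3.49, edgeR adjusted p = 1.12e-08), and HPRT1 at 108 to 132 and 29.7 to 34 TPM (-1.86, edgeR adjusted p = 5.64e-06). KCNQ5 (-2.46), LYZ (1.68), NCAM1 (2.99), HMGCS1 (-0.97) and WNT7B (1.65) were called there too. With the replicate number as a block, 3803 genes were called at 5% CO2. The number at 5% was 587 without shNT replicate 2 and 507 without shNT replicate 3, which left 517 and 464 genes called at both levels.

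Whether the difference between the lines depended on CO2 was tested as an interaction over the 12 basal libraries. edgeR called 0 genes, with 192 genes at an unadjusted p under 0.05, and DESeq2 also called 0, with 164 at an unadjusted p under 0.05. The 192 are fewer than the share of 0.05 of the 17720 genes tested that would be reached without any true difference. The edgeR test was thus strict, and 0 calls do not show that the lines differ equally at both CO2 levels. For genes called at 10% CO2 only, such as EGLN3 (3.00 at 10% and 1.56 at 5%, edgeR adjusted p = 0.223 at 5%), TREML3P (3.76 and 1.84) or HSPA6 (1.16 and 0.58), a difference between the CO2 levels was therefore not shown. With LPS at 10% CO2, in another 6 libraries, 3344 genes (18.9%) were called between the lines, 1647 higher (9.29%) and 1697 lower (9.58%) in shNR4A2 cells. Of the 1409 genes called in the basal state 1387 (98.4%) had the same sign with LPS, against 75.7% of all genes. Both comparisons called 1051 genes, 74.6% of the basal genes and 31.4% of the LPS genes, and 1047 of them had the same direction. MYC (-0.73 basal and 0.46 with LPS, edgeR adjusted p = 0.0244 with LPS) and CXCR4 (0.77 and -1.03, 0.000186) were called in opposite directions. Dependence on LPS was not tested. The number with LPS was 1897 without shNT replicate 3 and 2072 without shNR4A2 replicate 3.

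**Figure D4:**
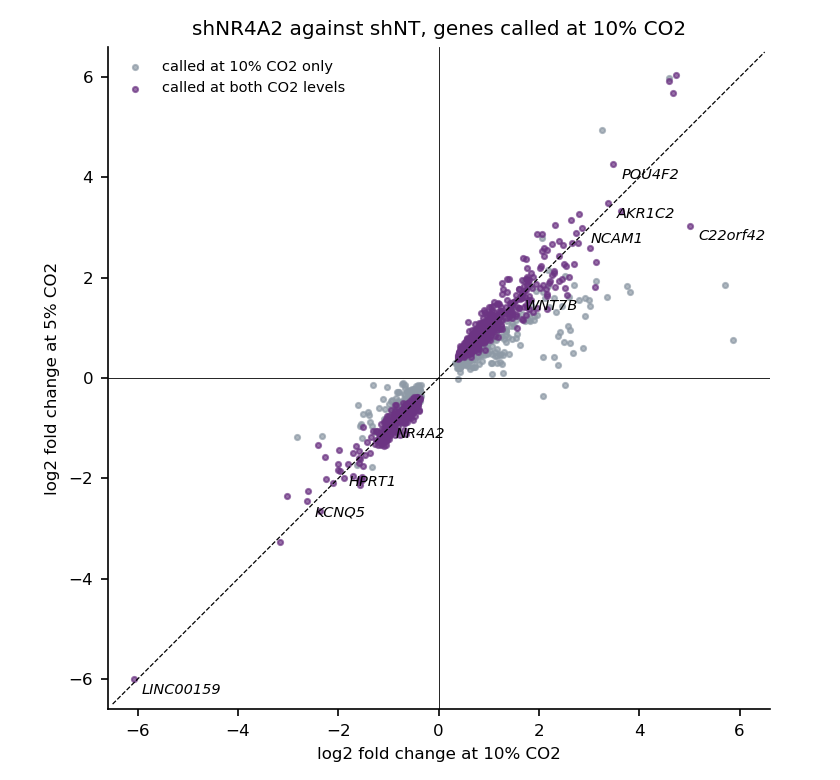
Log2 fold change of shNR4A2 over shNT cells at 5% CO2 (vertical axis) against that at 10% CO2 (horizontal axis) for the 1409 genes called at 10% CO2, with the 781 called at both levels in purple, the rest in grey and equal values on the dashed line. Of the 1409 points 1406 have the same sign on both axes.

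To set the shNR4A2 line beside another knockdown, it was compared directly with shNR4A3 cells at 10% CO2. In shNR4A3 cells NR4A3 itself was not called against shNT cells (-0.39, edgeR adjusted p = 0.735), while NR4A1 was lower (-0.76, 0.00566). Between the knockdown lines neither NR4A2 (-0.81, edgeR adjusted p = 0.0595) nor NR4A3 (1.07, 0.209) was called. NR4A1 was called higher in shNR4A2 than in shNR4A3 cells (0.65, edgeR adjusted p = 0.0188). edgeR called 1339 genes (7.56%), 718 higher (4.05%) and 621 lower (3.5%) in shNR4A2 than in shNR4A3 cells. The number was 770 without shNR4A2 replicate 3 and 784, 614 and 700 without shNR4A3 replicates 1, 2 and 3. Against the same shNT libraries, 1213 genes (6.85%) were called in shNR4A3 cells, between 595 (without shNR4A3 replicate 1) and 2031 (without shNT replicate 1), with 701 without shNT replicate 2 and 766 without shNR4A3 replicate 3. Because both knockdown lines are read against the same shNT libraries, their values are only set side by side and the direct comparison serves as the test.

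Several of the largest differences from shNT cells also separated the knockdown lines. AKR1C2 was at 35.8 to 44.1 TPM in shNR4A3 cells, below the shNT libraries, and differed from shNR4A2 cells by 3.74 on the log2 scale (SE 0.11, edgeR adjusted p = 6.07e-11). HPRT1 was at 114 to 129 TPM in shNR4A3 cells (-2.02, edgeR adjusted p = 1.11e-07). SEZ6L2, a neuronal membrane protein gene, was at 39.5 to 51.7 TPM in shNR4A2, 116 to 141 TPM in shNT and 127 to 140 TPM in shNR4A3 cells (-1.59 between the knockdown lines, edgeR adjusted p = 9.49e-08). POU4F2 was under 1 TPM in each shNR4A3 library (4.56, edgeR adjusted p = 2.3e-07) and WNT7B at 2.96 to 8.46 TPM, within the shNT range or below it (1.92, edgeR adjusted p = 0.00543). The lysosomal sialidase gene NEU1 and the endosomal GTPase-activating protein gene TBC1D5, named after their values were seen, were lower in shNR4A2 than in shNR4A3 cells by 1.46 and 1.32 on the log2 scale (edgeR adjusted p = 1.93e-07 and 6.17e-07). HMGCS1 (-1.43), SC5D (-1.22), KCNQ5 (-2.12), MYC (-0.52) and KIT (-0.77) differed between the knockdown lines as well, with lower levels in shNR4A2 cells.

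Of the NRF2 list, 15 of 30 genes were called higher in shNR4A2 than in shNR4A3 cells and 0 lower, beside 4.05% and 3.5% of all genes. The median difference was 0.39. The list was drawn up after values of these same shNR4A2 libraries were seen, so these counts are not independent of its choice. The median of shNR4A3 over shNT cells was 0.06, with 3 called higher and 4 lower, beside 3.49% and 3.35% of all genes. NQO1 was 0.91 higher in shNR4A2 than in shNR4A3 cells on the log2 scale (edgeR adjusted p = 0.000151), SLC7A11 1.30 (2.51e-06) and OSGIN1 1.94 (5.22e-05).

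For other genes both knockdown lines lay on the same side of shNT cells. Among 22 monocyte markers tested, 9 were called higher and 1 lower in shNR4A3 than in shNT cells, beside 3.49% and 3.35% of all genes. Their median log2 fold change was 0.77. Between the knockdown lines 2 of 22 were called, beside 7.56% of all genes, which does not set these markers apart from other genes. LYZ was at 777 to 1058 TPM in shNR4A3 cells and its difference from shNR4A2 cells was not called (-0.49, SE 0.14, edgeR adjusted p = 0.0576). The values of shNR4A2 and shNR4A3 over shNT cells were 2.86 and 2.58 for NCAM1, -3.16 and -3.18 for HUNK, -2.60 and -3.25 for KDR and -2.36 and -2.63 for IGSF10. None of these 4 genes was called between the knockdown lines (edgeR adjusted p = 0.435 to 0.989), with standard errors that do not show the lines to be alike. CD36 and MNDA were called, and both were lower in shNR4A2 than in shNR4A3 cells, CD36 by 1.14 and MNDA by 0.58 on the log2 scale, though CD36 was higher than shNT in both. ITGA4 differed in direction, at 20.9 to 29.2 TPM in shNR4A2, 35 to 43.5 TPM in shNT and 51.2 to 61.5 TPM in shNR4A3 cells (-1.21 between the knockdown lines, edgeR adjusted p = 2.14e-06).

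**Figure D5:**
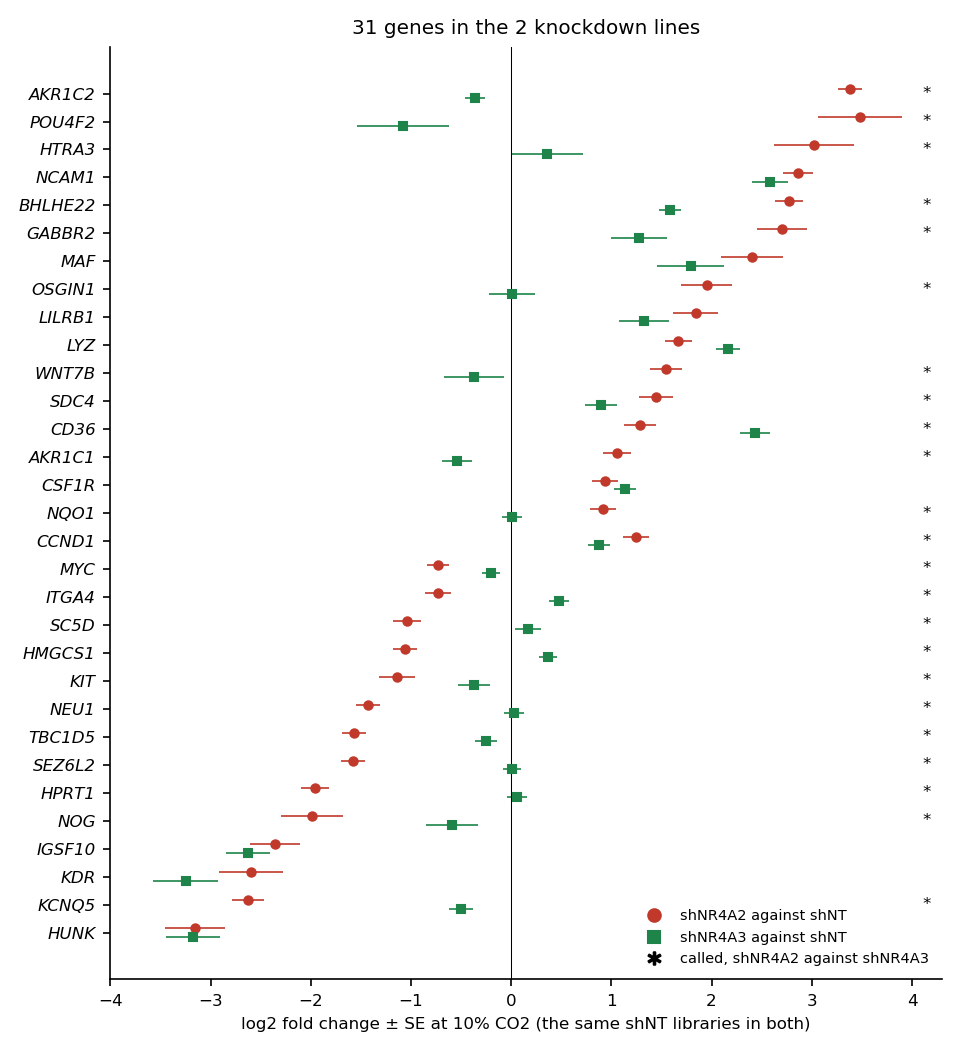
Log2 fold change with its SE (horizontal axis) over the same 3 shNT libraries at 10% CO2 for shNR4A2 cells (red circles) and shNR4A3 cells (green squares), for 31 genes, with an asterisk where the direct comparison of the knockdown lines was called. AKR1C2 (3.38 and -0.36), WNT7B (1.55 and -0.37) and SEZ6L2 (-1.58 and 0.01) lie farther from 0 in shNR4A2 than in shNR4A3 cells, while NCAM1, LYZ, KDR and HUNK lie to the same side in both lines.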

How the data were processed

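RNA was sequenced from 36 THP-1 libraries in 12 groups of 3, of which 6 form the main comparison. The authors deposited raw read counts per gene, made with Trimmomatic 0.36, STAR 2.5.2b and featureCounts of Subread 1.5.2 on GRCh38. Neither the release of the annotation nor the strandedness and unit of counting (read or fragment) is given in the sources used here, so overlapping and antisense genes cannot be told apart. Groups were taken from the labels.

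Counts were tested with edgeR 4.0.16 in R 4.3.3 (TMM, robust quasi-likelihood) on 17720 genes kept by filterByExpr over all libraries, fitting only the groups compared, and DESeq2 1.42.0, the tool of the study, was an alternative. The steps were tested on simulated data. An exact permutation test of 3 against 3 libraries cannot go below p = 0.1. Intervals cover counting error only. Replicates of a group in the main comparison differed by more than sampling noise (chi-square per degree of freedom 10.2 to 29.2).

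Named genes were NR4A1 to NR4A3, WNT7B, the 14 largest called changes in each direction without overlap and at 1 TPM or more, up to 4 called genes per list by adjusted p (defining members not called with values only), and up to 5 of the direct comparison of knockdown lines. C1QA, NEU1, TBC1D5, CD14, CSF1R, ITGB2, OSGIN1 and GRIN2D, the NRF2 list and its members, the genes with an NBRE and the antioxidant motif were chosen after their values were seen. Members and lists were all chosen with earlier results of these data known. At 5% CO2 same-numbered libraries of both lines deviated together (r = 0.184, 0.178 and 0.219), and the pairing comes from the data, not the labels. Some genes that the rule names are not reported here.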

Additional observations from a re-analysis of the deposited data

Results flagged for a closer look

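The difference between a knockdown line and shNT cells at 10% CO2 itself differed between the shNR4A2 and shNR4A3 lines for 1339 genes, by the direct edgeR comparison of the lines, of which the 5 with the smallest adjusted p and WNT7B are given here. AKR1C2 was 3.74 higher in shNR4A2 than in shNR4A3 cells on the log2 scale (edgeR adjusted p = 6.07e-11), with 3.38 and -0.36 over the same shNT libraries. FIGN, a microtubule-severing ATPase gene, gave 4.26 (edgeR adjusted p = 7.15e-09), from 0.18 in shNR4A2 and -4.07 in shNR4A3 cells. PRDM6, a PR-domain repressor gene, gave -3.18 (edgeR adjusted p = 4.82e-09), from -0.04 and 3.15. EPHA7, an ephrin receptor gene, gave -2.78 (edgeR adjusted p = 2.82e-08), from -0.88 and 1.90, and its call against shNT cells was lost without shNR4A2 replicate 3 (edgeR adjusted p = 0.0541). SEZ6L2 gave -1.59 (edgeR adjusted p = 9.49e-08), from -1.58 and 0.01. WNT7B gave 1.92 (edgeR adjusted p = 0.00543), from 1.55 and -0.37. For FIGN and PRDM6 the distance lay with the shNR4A3 line, while for AKR1C2, SEZ6L2 and WNT7B it lay with the shNR4A2 line. Each line is 1 transduction, and its part in these values was not tested.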

How the results depend on the processing

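Besides NR4A2, 115 of the genes followed through the alternatives were called at 10% CO2, of which 35 lost the call under at least 1 alternative and 0 changed sign. Of the 35, 32 lost it when 1 library was left out. DESeq2 gave no adjusted p for C22orf42, TREML3P, LINC00159 and EGLN3, and this was not counted as a lost call. The number of genes called, shNR4A2 against shNT at 10% CO2, ranged from 750 to 1505 with 1 library left out, and was 683 at an adjusted p under 0.01 and 926 with a fold of at least 1.5. It was 2107 with the replicate number as a block, but same-numbered libraries did not deviate together (r = 0.185, -0.0563 and -0.0492; 1 of 3 matched best with its own number). At 5% CO2 the number was 417 at an adjusted p under 0.01, 3803 with the replicate block, 1791 in 1 fit to all 36 libraries and 507 to 1221 with a library left out. The genes called at both CO2 levels were 1743, 1254 and 464 to 807 under the last 3. Between the knockdown lines it was 530 at an adjusted p under 0.01, 651 with a fold of at least 1.5, 3673 with the block (r = 0.232, 0.2 and 0.0888; 3 of 3) and 614 to 1399 with a library left out. For shNR4A3 against shNT it was 2394 with the block and 595 to 2031 with a library left out, and with LPS 6161 and 1897 to 3745. The test of dependence on CO2 called 0 genes under every alternative run. The NR4A2 log2 fold change lost its call with library size only (-0.98), DESeq2 (-1.01), thinned counts (-0.95), without shNT replicate 3 and shNR4A2 replicate 2 together (-0.67; chosen after seeing the data) and in 5 of 6 fits without a library (range over all 6 -1.24 to -0.75). Signs turned only for genes not called: NR4A1 (-0.22 to 0.01 with a library left out), ABCC1 (-0.17 to 0.03), PRDM6 (-0.21 to 0.09, and 0.08 without both libraries named above) and NFE2L2 (0.01 with RLE, 0.03 with library size, 0.00 with DESeq2 or all 36 libraries, 0.09 without both libraries, -0.07 to 0.08 without 1). The cause was not tested. NR4A2 and NR4A3 rest on few counts, which limits their precision.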

Other observations

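By chromosome, the genes called between shNR4A2 and shNT cells at 10% CO2 were spread over the genome, with chromosome 13 apart from the rest. Of its 320 tested genes 6 were called higher (1.88%) and 22 lower (6.88%), beside 4.55% and 3.4% of all genes. Its median log2 fold change was -0.13 at 10% CO2 and -0.10 at 5% CO2, and -0.06 for shNR4A3 over the same shNT libraries at 10% CO2. The chromosome was singled out after its values were seen, and no test was made.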
